A study of Mus musculus with 8 samples.

Results

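The genes described here are 10 transcriptional regulators with known roles in the self-renewal of haematopoietic stem cells (HSCs): Mecom, Hlf, Prdm16, Mycn, Myc, Runx1, Erg, Mllt3, Fli1 and Etv6. They were chosen by name, as rows of the deposited gene table whose symbol equals one of these names, and all 10 were found among its 38172 rows. HSCs are the rare marrow cells from which all blood lineages are renewed. RNA was measured in HSCs freshly sorted from C57BL/6 mice, young at 4 months and old at 24 months of age. The sort took SP-KSL-CD150+ cells: cells of the side population, defined by efflux of a DNA dye, that are positive for Kit, Sca-1 and CD150 (Slamf1) and negative for lineage markers. There were 2 biological replicates at each age, numbered 13 and 14 at both, and 2 technical libraries of each replicate, which were averaged, so n = 2 per age. How many animals make up a replicate is not given, so p-values measure only the spread between these samples.

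A stem cell division can keep at least 1 daughter in the stem cell state, and these factors are known for holding that state against differentiation. Mecom (Evi1) and Prdm16 are zinc finger proteins of the PRDM family that are needed for HSC maintenance. Hlf is a PAR bZIP factor characteristic of immature haematopoietic cells. Myc and Mycn drive growth and metabolism through E-box sites together with Max, and Myc is known to promote exit from the niche and differentiation. Runx1 binds DNA with Cbfb and is required for the emergence of HSCs. Erg, Fli1 and Etv6 are ETS factors, the first pair closely related activators and the last a repressor. Mllt3 (AF9) is a chromatin reader that recruits the Dot1l methyltransferase and elongation factors and is known to sustain HSC self-renewal.

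The deposited values behave as read counts scaled per library by the authors, with totals of 40.7 M to 44.2 M. Depth before scaling, estimated from the steps between values, ranged from 22.3 M to 66.5 M reads. At this depth the member with the lowest read number, Prdm16, had at least 2223 reads in a library, a counting error of at most 2.12%. Technical libraries of 1 replicate differed by at most 5.69% (Etv6) among the 10 genes. Of 12 HSC markers all 12 were tested, and Slamf1 (the CD150 gene, a marker of the sort) and Procr were higher in old HSCs. The log2 fold change was 0.91 for Slamf1 (adjusted p = 0.0226 in limma) and 0.84 for Procr (adjusted p = 0.0483). At an adjusted p under 0.05 limma called 2.01% of all 18318 tested genes higher and 0.540% lower in old HSCs. With no filter on low values limma called 0 genes in all, so neither call, nor any marker call given below, held there. All 12 HSC markers were fitted above 0 and did not overlap between the ages, 7 had an unadjusted p under 0.05 in limma, and the median log2 fold change was 0.47. Of all 18318 tested genes 10349 were fitted above 0 and 7969 below 0. Of the same genes 24.7% were higher in old HSCs without overlap, and 8.97% were higher at an unadjusted p under 0.05 in limma. The HSC markers, with Kit the highest by mean scaled value, summed to 126395.5 and 123764.5 in young HSCs against 141981 and 152503 in old HSCs. Markers of neutrophils and monocytes, of which Mpo had the highest mean scaled value through young 14 and Lyz2 was higher in the other 3 replicates, summed to scaled values of 22831 (young 13), 75978 (young 14), 22283.5 (old 13) and 43935.5 (old 14), and 0 of 14 passed the test (5 at an unadjusted p under 0.05 in limma, and 12 of 14 fitted below 0). Young 14 also stood apart in the immediate early and stress genes given beside Myc. Erythroid markers (Tfrc the highest by mean scaled value, Hba-a1 per length) summed to 12227 and 12126.5 in young HSCs against 6885 and 6348 in old HSCs, with 5 of 11 rows called lower in limma. By the same scaled values, megakaryocyte markers (highest, Itga2b) summed to between 19681 and 24931.5, B and T cell markers (Cd79b) to between 1500.5 and 1654.5, and markers of stroma and endothelium (Pecam1) to between 10384.5 and 11335.5 in young and between 7331 and 7712 in old HSCs, with Kdr called higher and 3 of 10 called lower in limma. None of these markers was at 0 in all 4 replicates, and the lowest defining lymphoid gene, Pax5, lay between 0.5 and 10.5. The part of other cells in the values below was not tested, and in bulk RNA fewer cells of a type and less RNA per cell cannot be told apart.

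None of the 10 genes passed the test for a difference with age, and the largest fitted differences were higher values of Mycn and Mllt3 in old HSCs. At a Benjamini-Hochberg adjusted p under 0.05 over all 18318 tested genes, limma and limma-voom each called 0 of the 10, against 2.55% of all tested genes in limma (2.01% higher and 0.540% lower in old HSCs). At an unadjusted p under 0.05 limma had 2 of the 10, Mycn and Mllt3, both higher in old HSCs, where 14.0% of all tested genes met that limit in either direction and 8.97% with a higher value in old HSCs. The fitted log2 fold change, old over young, was above 0 for 8 of the 10 (Erg, among the 8, had values below 0 with median-ratio factors or quantile normalization) with a median of 0.24. Of all 18318 tested genes 10349 were fitted above 0, and their median was 0.04. That median over all tested genes was -0.001 with median-ratio factors and -0.009 with quantile normalization. The replicates of both ages did not overlap for 8 of the 10 genes, 6 higher and 2 lower in old HSCs, an arrangement that 42.1% of all tested genes showed (24.7% higher and 17.4% lower). With 2 replicates per age the 95% intervals were wide: the narrowest, that of Fli1, ran from -0.05 to 0.61 on the log2 scale. In the authors' deposited table, Mycn (log2 fold change 0.76, FDR 2.69e-08) and Mllt3 (log2 fold change 0.56, FDR 6.08e-05) were marked as higher at 24 months and the other 8 were not marked. Of all 38172 rows 6.90% were marked in either direction and 3.51% as higher. Those shares are not over the 18318 tested genes, and 10842 of the rows were at 0 in all 4 replicates. The log2 fold changes of those 8 in the authors' deposited table lay between -0.195 (Etv6) and 0.276 (Mecom), with the smallest FDR at 0.152 (Mecom). Which libraries entered that comparison as replicates is not stated there.

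**Figure D1:**
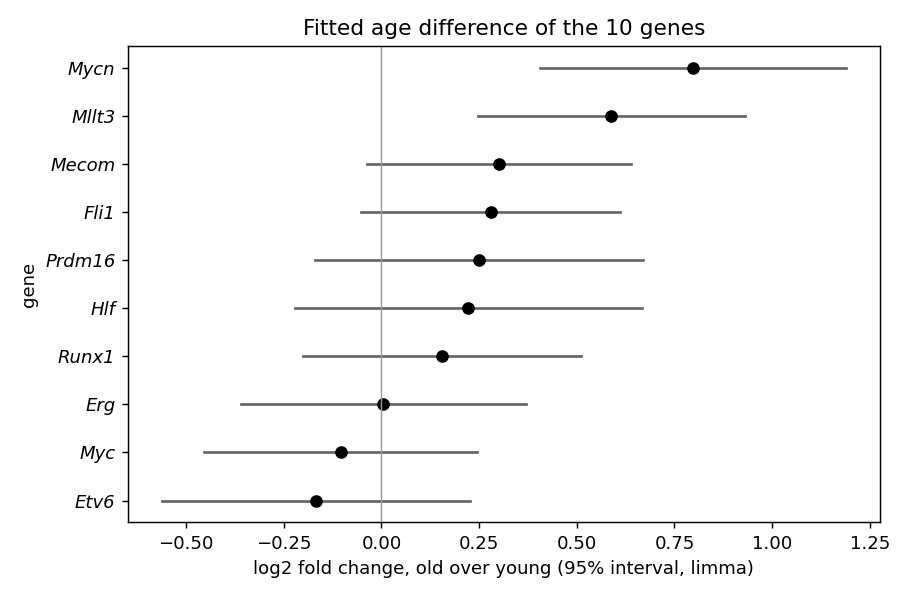
Fitted log2 fold change, old over young, of the 10 genes (points) with the 95% interval of limma (lines), on 2 replicates per age. The intervals of Mycn and Mllt3 lie above 0 before adjustment for all tested genes, and those of the other 8 include 0.

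The bases before the transcription start are shown for Mycn and Mllt3, the members with the smallest p, and for both starts of Mecom. They were chosen after the values were seen. Each run is the 250 bases 5′ of a RefSeq start in GRCm38.p6, 5′ to 3′ on the gene's strand, whereas gene coordinates given elsewhere are those of the authors' mm9 table. Capitals mark letters of 4 motifs searched on both strands: the letters CGGAAG for ETS factors, the letters TGTGGT for RUNX factors, the letters CACGTG of the E-box, and the letters AGATAA for GATA factors.
Mycn, chr12:12941837-12942086, minus strand: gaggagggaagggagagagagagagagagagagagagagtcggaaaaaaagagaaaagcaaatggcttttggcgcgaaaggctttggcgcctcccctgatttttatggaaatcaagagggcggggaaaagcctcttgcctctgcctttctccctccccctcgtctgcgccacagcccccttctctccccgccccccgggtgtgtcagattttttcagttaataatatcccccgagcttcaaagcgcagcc
Mllt3, upstream start, chr4:88033408-88033657, minus strand: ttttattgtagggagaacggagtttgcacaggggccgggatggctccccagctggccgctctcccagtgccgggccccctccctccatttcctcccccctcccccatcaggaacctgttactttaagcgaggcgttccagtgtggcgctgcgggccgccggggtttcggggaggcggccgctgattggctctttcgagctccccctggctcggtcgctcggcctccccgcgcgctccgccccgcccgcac
Mecom, upstream (Mds1) start, chr3:30509760-30510009, minus strand: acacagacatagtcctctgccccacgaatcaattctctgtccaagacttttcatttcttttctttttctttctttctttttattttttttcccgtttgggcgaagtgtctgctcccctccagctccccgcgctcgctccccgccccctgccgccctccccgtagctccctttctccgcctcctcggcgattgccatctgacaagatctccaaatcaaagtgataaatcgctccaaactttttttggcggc
Mecom, downstream (Evi1) start, chr3:30013205-30013454, minus strand: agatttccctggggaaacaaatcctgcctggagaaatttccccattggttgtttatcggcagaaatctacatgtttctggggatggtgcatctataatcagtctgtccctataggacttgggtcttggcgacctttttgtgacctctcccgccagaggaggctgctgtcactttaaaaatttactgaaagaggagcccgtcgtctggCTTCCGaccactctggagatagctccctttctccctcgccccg
The windows of Mycn, of this start of Mllt3 and of the upstream start of Mecom held none of the 4 motifs, and the downstream start of Mecom held 1 copy of the ETS letters, as CTTCCG on the printed strand. Promoters were found for 8 of the 10 genes, with 13 starts, and not for Myc and Fli1. Over the 13 windows ETS letters were present in 1, RUNX letters in 0, the E-box in 1 (the upstream start of Runx1) and GATA letters in 1 (a downstream start of Erg). Among all 32851 windows of the same length 13.6% held the ETS letters, 14.0% the RUNX letters, 6.02% the E-box and 9.99% the GATA letters. A match here is a description of letters and not of a bound site.

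Mecom and Prdm16, the PRDM members, had slightly higher means in old HSCs. Mecom (chromosome 3, 29850218 to 29912126, mm9) had scaled values of 6544 and 6219 in young 13 and 14 and 8228.5 and 7506 in old 13 and 14. Both old replicates lay above both young ones, by 1.147 to 1.323 times, and the gene did not pass (log2 fold change 0.30, SE 0.14, adjusted p = 0.426 in limma). Prdm16 (chromosome 4, 153690234 to 154010982) had 4114.5 and 3383 in young HSCs against 4984 and 3950.5 in old HSCs, and the ages overlapped (log2 fold change 0.25, SE 0.18, adjusted p = 0.631). Replicate 14 was the lower one for both genes at both ages. The row named Mecom covers the downstream Evi1 start, and a separate row, Mecom.1 (30135491 to 30408409), lies upstream of it at the Mds1 exons. Reads in the Mecom row from transcripts that begin at the upstream start cannot be told apart here. The rows are therefore not separate measures of the starts. Mecom.1 had 309 and 265 in young HSCs against 284.5 and 249.5 in old HSCs, with a mean of 5.35 FPKM in young and 4.98 in old, where the Mecom row had 28.91 and 35.65 (FPKM is the scaled value per length). The span of Prdm16 contains 5930403L14Rik on the same strand, with 3058.5 and 2744 in young HSCs against 3293 and 3556 in old HSCs, and reads of exons they share cannot be assigned to 1 of them here. By FPKM, Mecom was first of 12 Prdm genes at both ages, and Prdm16 ranked 4 in young and 3 in old HSCs, after Prdm4 and near Prdm2. The ratio of Prdm16 to Mecom FPKM was 0.323 and 0.28 in young HSCs against 0.311 and 0.27 in old HSCs, so the ages overlapped (exact permutation p = 0.667, two-sided, n = 2 per age).

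Of 13 tested Prdm relatives and co-repressors 0 passed in limma or at an unadjusted p under 0.05. In this list 12 of 13 were fitted below 0, against 7969 of all 18318 tested genes, and the median log2 fold change was -0.165. The smallest p belonged to Prdm2, a tumour suppressor with a PR domain, at 5877 and 5779 in young HSCs against 5251 and 4146 in old HSCs (adjusted p = 0.465). It was followed by Suv39h1, an H3K9 methyltransferase that works with Mecom, at 3919.5 and 4029 against 3212.5 and 3472.5 (adjusted p = 0.506). Both had lower values in both old replicates, whereas Mecom had higher ones.

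Hlf was the most abundant of the 10 genes per length at both ages. Its scaled values (chromosome 11, 90197849 to 90252231) were 28765.5 and 28143 in young HSCs against 30172.5 and 36522 in old HSCs. The ages did not overlap, but old 14 lay farther from old 13 than old 13 from either young replicate, and the gene did not pass (log2 fold change 0.22, SE 0.19, adjusted p = 0.696 in limma). Without old replicate 14 the fitted log2 fold change was 0.085, and without old replicate 13 it was 0.36. An unnamed model on the opposite strand, HAG_005505, overlaps the row of Hlf over 2306 bases and had 1033.5 and 1015.5 in young HSCs against 1238.5 and 1469.5 in old HSCs. As no source used here says that strand was counted, reads of the pair cannot be told apart. Hlf had 100.5 FPKM in young and 117.8 in old HSCs, and the other PAR bZIP factors were lower, Tef at 12.9 and 11.7 and Dbp at 5.82 and 4.98. Of 12 tested PAR bZIP and clock genes 0 passed in limma, with 1 at an unadjusted p under 0.05 and a median log2 fold change of -0.06. That gene was Nr1d1, a nuclear receptor that represses the clock, at 673 and 524.5 in young HSCs against 770.5 and 854 in old HSCs (adjusted p = 0.345). Clock, the activator of the same loop, had 1689.5 and 1646 against 2177.5 and 1894.5 (adjusted p = 0.472).

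**Figure D2:**
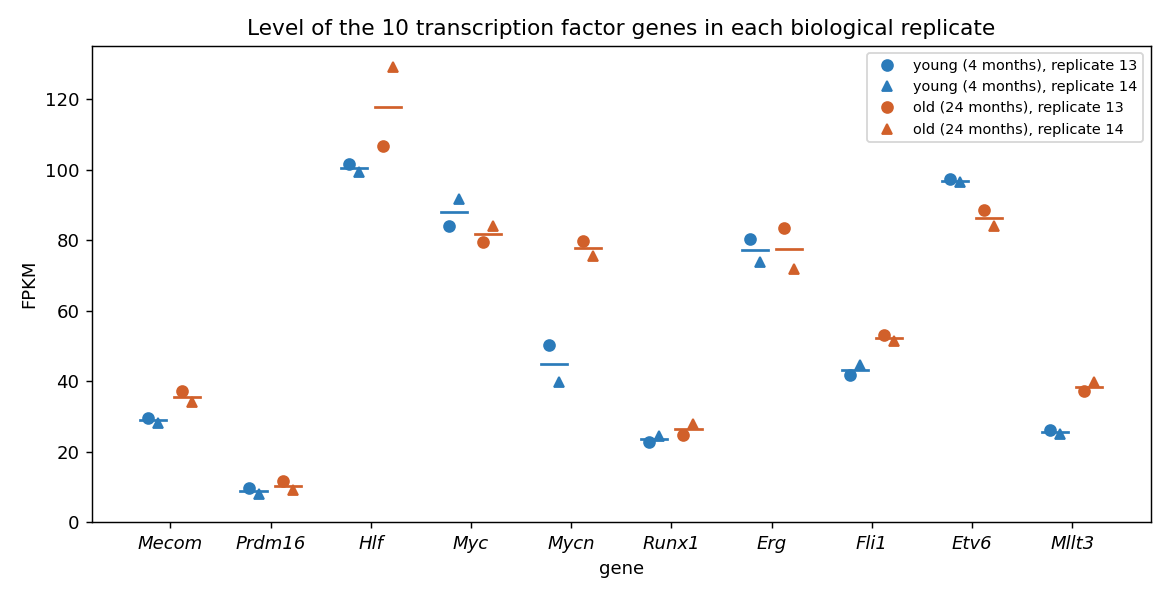
Level in FPKM of the 10 genes in each biological replicate, young in blue and old in orange, with circles for replicate 13, triangles for replicate 14 and bars for the mean of an age. Mycn is between 39.85 and 50.15 in young and between 75.6 and 79.8 in old HSCs, and Erg overlaps between the ages.

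The Myc genes differed in pattern: Mycn had higher and Myc slightly lower values in old HSCs. Mycn (chromosome 12, 12942899 to 12948642) had 6501.5 and 5166.5 in young HSCs against 10348 and 9804.5 in old HSCs. Each old replicate exceeded each young one by 1.508 to 2.003 times, a gap wider than the spread within either age. The fitted log2 fold change was 0.80 (SE 0.165, 95% interval 0.41 to 1.19), which did not pass in limma (adjusted p = 0.0637). The young replicates differed by 0.33 on the log2 scale, against at most 0.04 between technical libraries of Mycn, and without young replicate 14 the log2 fold change was 0.63 (adjusted p = 0.67). Myc (chromosome 15, 61816896 to 61821916) had 10073 and 10992 in young HSCs against 9532.5 and 10060.5 in old HSCs. The ages nearly touched, with old 14 at 0.9988 of young 13, and the fitted log2 fold change was -0.10 (SE 0.15, 95% interval -0.45 to 0.25, adjusted p = 0.835). The remaining gene of the family, Mycl1, was near 0 with 3.5 and 16.5 in young HSCs against 5 and 10 in old HSCs.

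The balance of Mycn and Myc was compared within each biological replicate, on FPKM values averaged over its technical libraries. The ratio of Mycn to Myc FPKM was 0.5964 and 0.4343 in young HSCs against 1.003 and 0.9005 in old HSCs, a log2 difference of 0.90. Old HSCs thus held similar FPKM values of both, and young HSCs about 0.515 of Mycn for each unit of Myc. The ages did not overlap, and the exact permutation test gave p = 0.333 (two-sided, n = 2 per age), the smallest p that this design allows. Within single technical libraries the scaling of the library drops out. There the log2 difference was 0.902 with the lower-numbered and 0.9 with the higher-numbered libraries. The sum of Mycn and Myc was 134.2 and 131.6 FPKM in young and 159.4 and 159.6 FPKM in old HSCs.

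**Figure D3:**
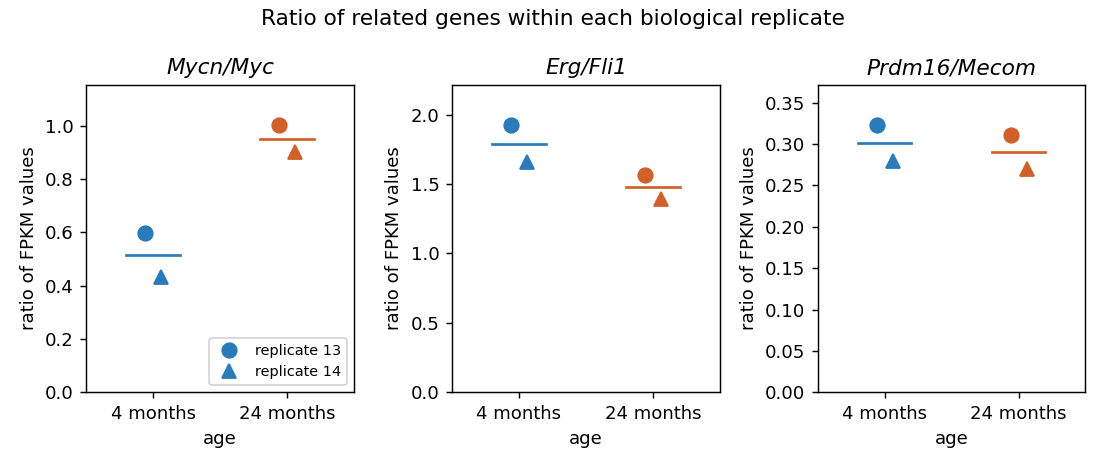
Ratio of the FPKM values of related members within each biological replicate at 4 and 24 months, with bars for the mean of an age. The Mycn to Myc ratio is higher and the Erg to Fli1 ratio lower in both old replicates, and the Prdm16 to Mecom ratio overlaps between the ages.

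Myc is itself an immediate early gene, and the other immediate early and stress genes differed widely between replicates of 1 age. Their 16 rows summed to 16994 (young 13), 179462.5 (young 14), 10882.5 (old 13) and 33624.5 (old 14). Myc was highest in young 14 and lowest in old 13, as this sum was, but within a much narrower range. Of the 16 rows 0 passed in limma, with 3 at an unadjusted p under 0.05, 15 fitted below 0 and a median log2 fold change of -1.62. The smallest p belonged to the heat shock genes Hspa1a, with 16.5 and 151.5 in young HSCs against 5.5 and 6.5 in old HSCs (adjusted p = 0.195), and Hspa1b, with 57 and 245 against 36 and 35 (adjusted p = 0.267). The part of this response, or of the marker sums above, in the values of Myc was not tested. The log2 fold change of Myc was -0.041 without young 14, -0.167 without young 13, -0.065 without old 13 and -0.143 without old 14.

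**Figure D4:**
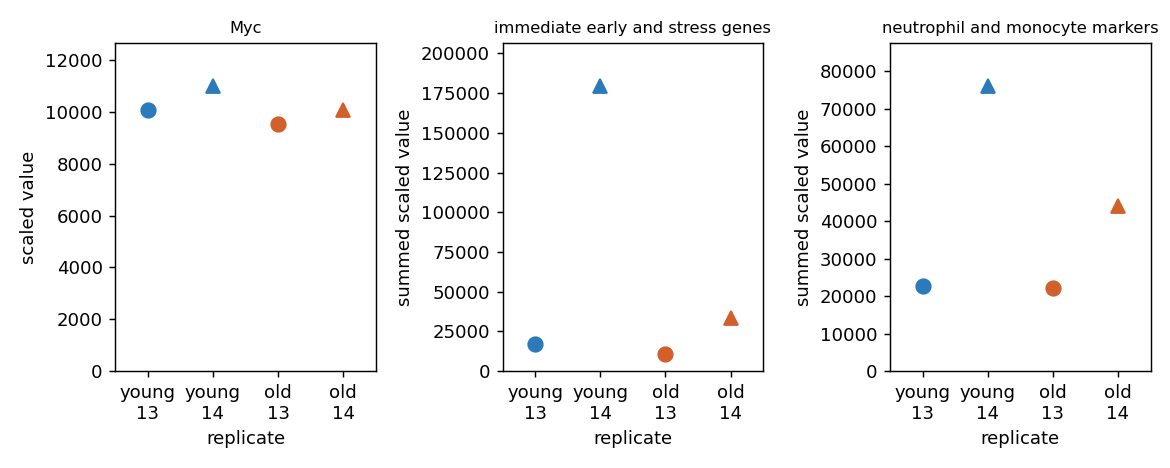
Scaled value of Myc and summed scaled values of the immediate early and stress genes and of the neutrophil and monocyte markers in each biological replicate. Young 14 is highest in all 3 panels, at 10992, 179462.5 and 75978.

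The partners and target genes of Myc showed no called difference. Of 13 tested Myc network genes 0 passed in limma and 0 had an unadjusted p under 0.05. Fitted below 0 were 9 of these 13, against 7969 of all 18318 tested genes, and the median log2 fold change of the 13 was -0.14. Their sum was 81685 and 78307 in young HSCs against 78858.5 and 63775 in old HSCs, with old 14 the lowest and old 13 within the young range. Without overlap between the ages 0 of the 13 were higher and 6 lower, where 24.7% of all tested genes were higher and 17.4% lower. Max, the shared partner of Myc and Mycn, had 3805.5 and 4074 in young HSCs against 3597 and 4315 in old HSCs. The smallest p belonged to Zbtb17 (Miz1), through which Myc represses genes, at 1728 and 1464.5 against 1385 and 1070 (adjusted p = 0.426), and to Mxd3, a Max-binding antagonist, at 486 and 363.5 against 342.5 and 272.5 (adjusted p = 0.456). Of 20 known Myc target genes 0 passed in limma, with 1 higher and 4 lower at an unadjusted p under 0.05 and a median log2 fold change of -0.13. That limit was met by 14.0% of all tested genes in either direction. Fitted below 0 were 14 of the 20, and without overlap between the ages 2 were higher and 9 lower. Hk2, the hexokinase that starts glycolysis, had 2914.5 and 2903 in young HSCs against 4221 and 4591.5 in old HSCs (adjusted p = 0.0839). Tfrc, the transferrin receptor and also an erythroid marker above, had 3900.5 and 4477 against 2965.5 and 2061.5 (adjusted p = 0.131).

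Runx1 differed little with age, and its relatives had lower values in old HSCs. Runx1 (chromosome 16, 92601711 to 92826311) had 8388 and 9012.5 in young HSCs against 9127.5 and 10260.5 in old HSCs. The lowest old value exceeded the highest young value by 1.013 times, and the fitted log2 fold change of 0.15 (SE 0.15, 95% interval -0.20 to 0.51) did not pass in limma (adjusted p = 0.744). In FPKM, Runx1 was first of the 3 Runx genes at both ages, at 23.6 in young and 26.3 in old HSCs. Runx3 had 20.5 and 13.2 FPKM, and Runx2 16.6 and 11.6. Runx3 had scaled values of 3720.5 and 4255 against 2810.5 and 2315 and did not pass (adjusted p = 0.112), nor did Runx2, with 5721 and 5766 against 4235 and 3819 (adjusted p = 0.139). Cbfb, the DNA-binding partner of all 3, had 7222.5 and 8181.5 against 7439 and 9461.5.

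Of 10 tested Runx partners and relatives 1 rose and 0 fell in limma, where 2.01% of all tested genes were called higher and 0.540% lower. Fitted below 0 were 7 of the 10, against 7969 of all 18318 tested genes, with a median of -0.15 on the log2 scale. At an unadjusted p under 0.05 limma had 1 higher and 2 lower, where 14.0% of all tested genes met that limit. Without overlap between the ages 2 were higher and 5 lower, against 24.7% and 17.4% of all tested genes. The gene that rose was Runx1t1 (ETO), a co-repressor known as the fusion partner of Runx1 in leukaemia, from 391 and 355 in young HSCs to 967 and 778.5 in old HSCs (log2 fold change 1.22, adjusted p = 0.0228), and limma-voom called it too (adjusted p = 0.0248) and no other gene of the context lists. Without young replicate 13 its adjusted p was 0.0744, without young 14 0.143, without old 13 0.15 and without old 14 0.198, while the log2 fold change stayed between 1.06 and 1.38 in these 4 fits, each of which leaves 1 replicate at 1 of the ages. The call was also lost with no filter on low values (0.131) and with no trend on level (0.0713). Its level stayed low, at 1.08 FPKM in young and 2.54 in old HSCs, against the FPKM values of Runx1 above.

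The ETS members took different courses, with Fli1 higher, Etv6 lower and Erg overlapping between the ages, and none passed. Fli1 (chromosome 9, 32229793 to 32348953) had 6410.5 and 6863.5 in young HSCs against 8175 and 7927 in old HSCs, a gap between the ages wider than the spread within either (log2 fold change 0.28, SE 0.14, adjusted p = 0.461). Erg (chromosome 16, 95581811 to 95751972) had 8836.5 and 8143 in young HSCs against 9177.5 and 7895.5 in old HSCs. Its old replicates lay on either side of both young ones, and its fitted log2 fold change of 0.01 (95% interval -0.36 to 0.37) had a sign that turned with the scaling (-0.04 with median-ratio factors). Etv6 (chromosome 6, 133985725 to 134220165) had 26856 and 26613.5 in young HSCs against 24407.5 and 23213 in old HSCs (log2 fold change -0.17, SE 0.17, adjusted p = 0.75). The ages of Etv6 did not overlap, with ratios of old to young between 0.864 and 0.917.

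Unnamed models on the opposite strand overlap each of these rows, and their replicates overlapped or lay apart between the ages as those of the member did. HAG_015186, which overlaps Erg over 837 bases, had 5230 and 5032 in young HSCs against 5682 and 4967.5 in old HSCs. HAG_040776 lies within the span of Fli1 and had 2668 and 3036.5 against 3526.5 and 3562. HAG_034691 overlaps Etv6 over 1949 bases and had 2385.5 and 2317 against 2297.5 and 2086.5. Whether these are separate transcripts or reads of the member counted again cannot be told apart without strand.

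Among 26 ETS genes Etv6 and Erg ranked first and second by FPKM at both ages, at 96.8 and 77.1 in young HSCs against 86.2 and 77.5 in old HSCs. Fli1 ranked 5 in young HSCs with 43.1 FPKM, after Elf1 and Elf2, and 4 in old HSCs with 52.3. The ratio of Erg to Fli1 FPKM was 1.93 and 1.66 in young HSCs against 1.57 and 1.39 in old HSCs, without overlap (log2 difference -0.27, exact permutation p = 0.333, two-sided, n = 2 per age, the smallest that this design allows). Of 17 other ETS genes tested 0 passed in limma, with 1 higher and 2 lower at an unadjusted p under 0.05 and a median log2 fold change of -0.02. Etv1 was close to the filter with 18 and 25.5 in young HSCs against 7 and 4.5 in old HSCs (adjusted p = 0.112). Ets1, a factor of lymphoid and endothelial cells, had 1414 and 2027.5 against 2394.5 and 2740 (adjusted p = 0.228).

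**Figure D5:**
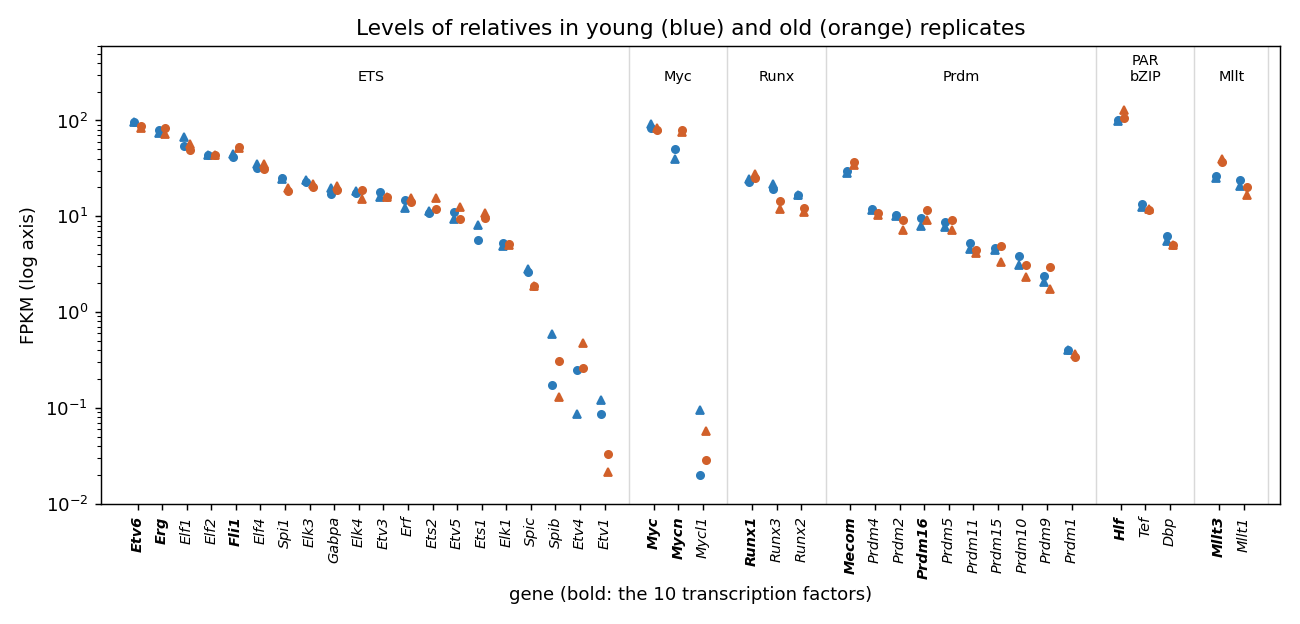
Level in FPKM (log axis) of relatives of the 10 genes in each replicate, young in blue and old in orange, circles for replicate 13 and triangles for replicate 14. Genes whose mean was under 0.05 FPKM at both ages are not drawn. Etv6, Myc, Mecom, Runx1, Hlf and Mllt3 head their families by mean FPKM at both ages.

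Mllt3 had higher values in old HSCs, with the second-smallest p of the 10 genes. It (chromosome 4, 87415829 to 87679311) had 8089 and 7769 in young HSCs against 11511 and 12351 in old HSCs, and every old value exceeded every young one by 1.42 to 1.59 times. The fitted log2 fold change was 0.59 (SE 0.145, 95% interval 0.25 to 0.93), which did not pass in limma (adjusted p = 0.107). Its replicates were close, with young 14 below young 13 and old 14 above old 13, and without young replicate 14 the log2 fold change was 0.56 (adjusted p = 0.801). Mllt1 (ENL), its paralog in the same complexes, had 4322.5 and 3718 in young HSCs against 3647.5 and 3027 in old HSCs (adjusted p = 0.552). In FPKM Mllt3 had 25.6 and Mllt1 22.4 in young HSCs, and 38.5 and 18.6 in old HSCs.

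A list of elongation complex genes, which also holds the paralog Mllt1 and the genes Mll1 and Men1, had 17 tested genes. Of these 0 passed in limma, with 1 at an unadjusted p under 0.05. In this list 15 of 17 were fitted below 0, against 7969 of all 18318 tested genes. The median log2 fold change was -0.14 where all tested genes had 0.04. The list summed to 93487.5 and 85238 in young HSCs against 87247.5 and 67008.5 in old HSCs, so old 13 lay between the young replicates and old 14 stood below them. Of these sums Mll1 made up 28037.5 and 23621 in young HSCs and 24640.5 and 14298.5 in old HSCs. Of the 17 genes 5 were lower and 0 higher without overlap between the ages, where 17.4% of all tested genes were lower and 24.7% higher. The smallest p was that of Dot1l, the H3K79 methyltransferase recruited by Mllt3, at 4334.5 and 3743 in young HSCs against 3271.5 and 1982 in old HSCs (adjusted p = 0.272). Dot1l thus had lower values in both old replicates, where Mllt3 had higher ones, and old 14 was the lowest. Whether Mllt3 differs with age in another way than the genes of this list was not tested.

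The order of the 10 genes by mean FPKM was similar at both ages, apart from Mycn and Mllt3. In young HSCs it ran Hlf, Etv6, Myc, Erg, Mycn, Fli1, Mecom, Mllt3, Runx1 and Prdm16, and of neighbours only Mycn and Fli1 overlapped in their replicates. In old HSCs it ran Hlf, Etv6, Myc, Mycn, Erg, Fli1, Mllt3, Mecom, Runx1 and Prdm16, and Myc with Mycn, Mycn with Erg, and Mllt3 with Mecom overlapped. Prdm16, the least abundant of the 10, had 8.73 ± 1.2 FPKM in young and 10.4 ± 1.7 in old HSCs (SD, n = 2), which placed it at the 59.1 percentile of all tested genes. The other 9 lay between the 82.9 percentile (Runx1) and the 98.0 percentile (Hlf).

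Other stem cell transcription factors, listed together with the regulators Msi2 and Bmi1, also had values on both sides. Of 29 tested 0 passed in limma, with 4 higher and 2 lower at an unadjusted p under 0.05, 17 fitted above 0 and a median log2 fold change of 0.07. The smallest p belonged to Ikzf2 (Helios), a zinc finger factor of the Ikaros family, at 3568 and 3537 in young HSCs against 2582 and 2248.5 in old HSCs (adjusted p = 0.117). Hoxb5, a homeobox gene known to mark long-term HSCs, had 521 and 393.5 against 711.5 and 767 (adjusted p = 0.148). Gata2, Tal1, Lyl1 and Lmo2, which are known to bind many HSC enhancers together with Runx1, Erg and Fli1, had fitted log2 fold changes between 0.06 (Tal1) and 0.27 (Lmo2), and none passed. Lmo2 was the most abundant of these, with 397.3 FPKM in young and 479 in old HSCs, several times the level of any of the 10 genes.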

How the data were processed

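Libraries of polyA-selected RNA were made with a TruSeq kit, as the labels' protocols state. Per the submitters' processing notes, mm9 and DESeq were used, in no stated role. Aligner and counter: not given in the sources used here. Values deposited under a count name behave as a score, the reads of each library multiplied by 1 factor and rounded. This was inferred from whole numbers that are skipped or that double up, which gave factors of 0.617 to 1.839. The correlation of that pattern with the one of the estimated factor ranged from 0.333 (old 14, library 4) to 0.938 (old 13, library 1). Factors and depths are thus less certain for some libraries. The planned test for scaled values was used in place of a count test. The deposited FPKM is that score over a constant per gene. The authors' deposited table gives for each gene a log2 ratio of the ages with its FDR, an adjusted p-value.

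Technical libraries were averaged. The test took the 18318 rows that reached a scaled value of 10 in 2 or more of the 4 replicates. In limma 3.58.1 under R 4.3.3, log2(value + 0.5) was modelled on age alone, with the prior variance following the level; p-values are two-sided, with Benjamini-Hochberg adjustment over all tested genes, and fold changes are on that scale. The fit was tested on simulated data with independent replicates and differences larger than any fitted for the 10 members. That test does not cover differences of their size. Spi1 was matched to Sfpi1 through RefSeq synonyms; Miz1 was not matched under that name. The genes named are the members, called genes and the 2 with the smallest p in each context list, the gene with the highest mean scaled value in each marker list, and models that overlap a member. Relatives and partners named for their level or role, Lyz2, Hba-a1, Pax5, Slamf1, Procr, Kdr, Runx2, Mecom.1 and the promoters were chosen after their values were seen, because no member passed the rule for promoters. The members and lists were chosen with earlier results of these data known. Alternatives covered pseudocounts, filters, scalings, single technical libraries, limma-voom, no trend, a replicate block and each replicate left out.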

Additional observations from a re-analysis of the deposited data

How the results depend on the processing

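Of the 14 alternatives, 13 called 0 of the 10 members. The exception was the replicate block, with the replicate number as a second term, which called 2 members, Mycn (adjusted p = 0.000209) and Mllt3 (adjusted p = 0.00365), 32 context genes in place of 1, and 2766 of all tested genes in place of 467. Young and old replicates share the numbers 13 and 14, and the deviations of young 13 and old 13 from their age means correlated at 0.544 across 18318 genes, but the labels do not say that a number marks a shared litter, batch or day, so the numbers are not taken as pairs. Apart from the block, the smallest adjusted p was 0.0617 for Mycn (pseudocount of 5) and 0.0832 for Mllt3 (quantile normalization), and their log2 fold changes stayed between 0.63 and 0.96 and between 0.54 and 0.64. The sign of Erg turned with median-ratio factors (-0.041), quantile normalization (-0.003), without young replicate 14 (-0.054) and without old replicate 13 (-0.103; it was 0.114 without old replicate 14), and no other member changed sign. The ratio of Prdm16 to Mecom had a log2 difference between -0.155 and 0.054 with 1 replicate left out, with values of 0.054 without young replicate 13 and 0.051 without old replicate 14. Leaving out 1 replicate gave between 0 and 13 called context genes and between 0 and 274 called genes in all, 0 without old replicate 13 or old replicate 14, where 3669 and 1933 had an unadjusted p under 0.05. With no filter on low values 0 genes were called in all and 0 context genes (2943 of 27330 at an unadjusted p under 0.05), with a mean FPKM of at least 1 302 genes, with the lower-numbered technical libraries 302, and with no trend 0 context genes. In these fits with a left-out replicate, the lone replicate of an age is assumed to vary like the others. The causes were not tested. Counting error of a member was at most 2.12% in a library, and replicates of 1 age differed by up to 0.335 on the log2 scale (Prdm16 in old HSCs, old 14 lower).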
